A study of Homo sapiens with 10 samples.

Results

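The 3 control libraries of the series, all without an RB construct and without siRNA against RB1, were compared for the places where their ChIP-seq summits recurred. A recurrent site was a set of 3 summits, 1 from each control list, whose positions spanned at most 250 bp on chromosomes 1-22 and X. There were 3396 such sites, built from 20718 summits listed for the control siRNA, 74193 for EV(245-255) and 156155 for EV(RBN). Within 1 kb of a gene start, they marked 2230 of 19839 protein-coding genes. Summits with no summit of either other control list within 250 bp were called 1-list summits and served as the contrast.

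Chromatin immunoprecipitation with sequencing (ChIP-seq) was carried out in 22RV1, a human prostate cancer cell line, and 3 of the 10 samples of the series are these controls. The control siRNA library is the partner of the RB1 knockdown, EV(245-255) is the empty-vector partner of a plasmid for RB residues 245-255 (HA-RB(245-255)), and EV(RBN) is the empty-vector partner of the plasmid that the labels call RBN (HA-RBN). All 6 immunoprecipitated libraries carry the treatment label "transfection infection", so no library of untouched cells is among them, and the labels name no antibody. Each group is 1 library, so there are no replicates, no test between groups, and intervals cover counting error only.

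In ChIP-seq, chromatin fragments held by an antibody pile up where its target sits, and the summit is the position of the tallest pile in a called interval. Gene starts that are rich in CpG dinucleotides are open in most cell types and carry the general transcription machinery, so many factors give signal there. TRIM24, which the series title is about, is a reader of histone marks that works as a co-regulator of nuclear receptors. RB, the product of RB1, restrains the E2F factors that drive genes of the cell cycle.

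The promoters of 8 genes with a recurrent site show the kinds of sequence near the sites. Each is given for the 250 bases before the RefSeq start (GRCh38.p14), 5′ to 3′ on the gene's strand, and capitals mark the motifs that were searched on both strands. GRSF1 lies at chr4:70839891-70840140 (minus strand), SPATC1L at chr21:46184460-46184709 (minus strand), ESYT1 at chr12:56128017-56128266 (plus strand), ATP5MC1 at chr17:48892537-48892786 (plus strand), CDK4 at chr12:57752311-57752560 (minus strand), NUSAP1 at chr15:41332631-41332880 (plus strand), RPS6KB1 at chr17:59892871-59893120 (plus strand) and RPS19 at chr19:41860005-41860254 (plus strand). GRSF1 and SPATC1L are shown as strong sites on tandem repeats. ESYT1 and ATP5MC1 are strong sites whose promoters hold CCAAT and E2F letters, with those of YY1 or CREB/ATF. These letters are in the promoter and need not lie at the summits. The rest are shown as members of the gene lists.
GRSF1: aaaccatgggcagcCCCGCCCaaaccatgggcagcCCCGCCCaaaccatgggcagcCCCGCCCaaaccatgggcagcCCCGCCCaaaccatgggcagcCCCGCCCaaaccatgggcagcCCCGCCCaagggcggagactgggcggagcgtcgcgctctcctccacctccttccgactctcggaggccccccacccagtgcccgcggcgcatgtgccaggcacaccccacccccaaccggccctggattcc
SPATC1L: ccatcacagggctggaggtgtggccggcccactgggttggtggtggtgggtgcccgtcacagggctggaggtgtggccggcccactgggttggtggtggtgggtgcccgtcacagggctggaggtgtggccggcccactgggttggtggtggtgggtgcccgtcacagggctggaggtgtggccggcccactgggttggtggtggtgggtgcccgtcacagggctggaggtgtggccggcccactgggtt
ESYT1: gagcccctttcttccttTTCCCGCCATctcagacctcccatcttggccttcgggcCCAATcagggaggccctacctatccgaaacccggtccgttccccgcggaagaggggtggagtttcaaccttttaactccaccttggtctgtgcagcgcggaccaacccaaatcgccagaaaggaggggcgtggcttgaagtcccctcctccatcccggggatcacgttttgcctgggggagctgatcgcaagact
ATP5MC1: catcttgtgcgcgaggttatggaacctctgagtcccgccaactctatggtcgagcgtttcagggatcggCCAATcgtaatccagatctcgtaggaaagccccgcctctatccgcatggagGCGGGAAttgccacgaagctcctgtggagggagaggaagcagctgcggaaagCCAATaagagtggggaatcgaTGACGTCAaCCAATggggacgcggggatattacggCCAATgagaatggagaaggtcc
CDK4: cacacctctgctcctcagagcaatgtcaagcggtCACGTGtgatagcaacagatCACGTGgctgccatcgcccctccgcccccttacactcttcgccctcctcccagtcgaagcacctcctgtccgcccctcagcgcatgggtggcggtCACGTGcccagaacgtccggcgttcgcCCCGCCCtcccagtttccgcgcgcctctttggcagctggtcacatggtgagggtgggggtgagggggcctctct
NUSAP1: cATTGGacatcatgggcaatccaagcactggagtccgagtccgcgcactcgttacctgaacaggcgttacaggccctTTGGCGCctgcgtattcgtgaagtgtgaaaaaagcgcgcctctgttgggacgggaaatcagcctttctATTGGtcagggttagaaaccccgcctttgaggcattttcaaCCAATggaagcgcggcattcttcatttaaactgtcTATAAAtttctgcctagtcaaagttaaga
RPS6KB1: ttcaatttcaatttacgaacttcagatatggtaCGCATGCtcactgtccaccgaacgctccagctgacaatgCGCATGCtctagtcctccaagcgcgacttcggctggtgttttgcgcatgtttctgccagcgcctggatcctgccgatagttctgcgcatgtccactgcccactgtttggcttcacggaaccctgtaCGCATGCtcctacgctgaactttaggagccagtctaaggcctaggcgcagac
RPS19: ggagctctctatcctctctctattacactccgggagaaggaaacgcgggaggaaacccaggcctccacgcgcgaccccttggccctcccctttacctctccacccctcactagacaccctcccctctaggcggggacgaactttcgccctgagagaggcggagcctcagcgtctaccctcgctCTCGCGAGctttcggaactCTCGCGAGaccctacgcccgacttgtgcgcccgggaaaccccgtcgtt

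In GRSF1 the 7 letters GGGCGGG, read here on the other strand, came back every 21 bases. SPATC1L held none of the searched motifs and repeated with a period of 53 bases. ATP5MC1 and NUSAP1 held several CCAAT boxes. ATP5MC1 also held the CREB/ATF letters TGACGTC, and NUSAP1 the E2F letters TTGGCGC. In ESYT1 the E2F letters TTCCCGC ran into those of YY1. CDK4 held CACGTG E-boxes, RPS6KB1 held the NRF1 letters GCATGCG, and RPS19 held the CGCG element TCGCGAG. The 3 summits of GRSF1 lay at −226, −247 and −250 bp from the start, inside the printed stretch. Those of CDK4 lay at −162, −162 and −165 bp, and those of NUSAP1 at −200, −198 and −181 bp.

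Recurrent sites were a small part of each list and a much larger part than chromosome positions gave. They took up 16.4% of the control siRNA summits, 4.58% of EV(245-255) and 2.17% of EV(RBN). Of all chromosome positions, 0.173%, 0.0960% and 0.0980% lay within 250 bp of a summit of both other lists, in the same order. Summits in 1 list made up 54.9%, 80.4% and 90.8%, and the rest were shared by 2 lists. The median span of the 3 summits was 122 bp, and 1361 sites spanned at most 100 bp. Pairs of lists alone gave 6584 sites for the control siRNA with EV(245-255), 6456 for the control siRNA with EV(RBN) and 11512 for the empty vectors. Only 309 summits of the control siRNA, 594 of EV(245-255) and 9547 of EV(RBN) had −log10 q of at least 2. With this asked of every list, 124 sites were left.

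The lists differ in how they were built, which limits what absence from a list shows. An IgG library partnered the control siRNA and EV(245-255), but the EV(RBN) list was made without one. Fold values are therefore not compared across lists. The control siRNA and EV(245-255) lists covered 95.4% and 95.6% of the chromosomes with intervals of median width 83571 and 22275 bp, each with 1 summit. EV(RBN) had narrow peaks of median width 450 bp that covered 2.79%. Of the EV(RBN) 1-list summits, 94.7% lay inside an interval of the control siRNA list and 91.8% inside one of EV(245-255), where a taller summit stood for the whole interval. A 1-list summit is therefore not a place shown to be unbound in the other libraries.

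Recurrent summits were strong within every list. Percentile ranks of fold enrichment, the signal over the caller's local background, were taken within each list and not compared between lists as fold values. The median rank of recurrent summits was 84.6 in the control siRNA list, 94.4 in EV(245-255) and 95.6 in EV(RBN). For 1-list summits it was 26.0, 35.4 and 47.0. In DNA fragments stacked at the summit, recovered from each peak's fold enrichment and p-value, the recurrent medians were 28, 19 and 7, and the 1-list medians were 4, 2 and 3. Fragment numbers were not scaled for depth. The curves of cumulative rank separated the classes in the same order in all 3 lists, with summits shared by 2 lists in between.

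**Figure D1:**
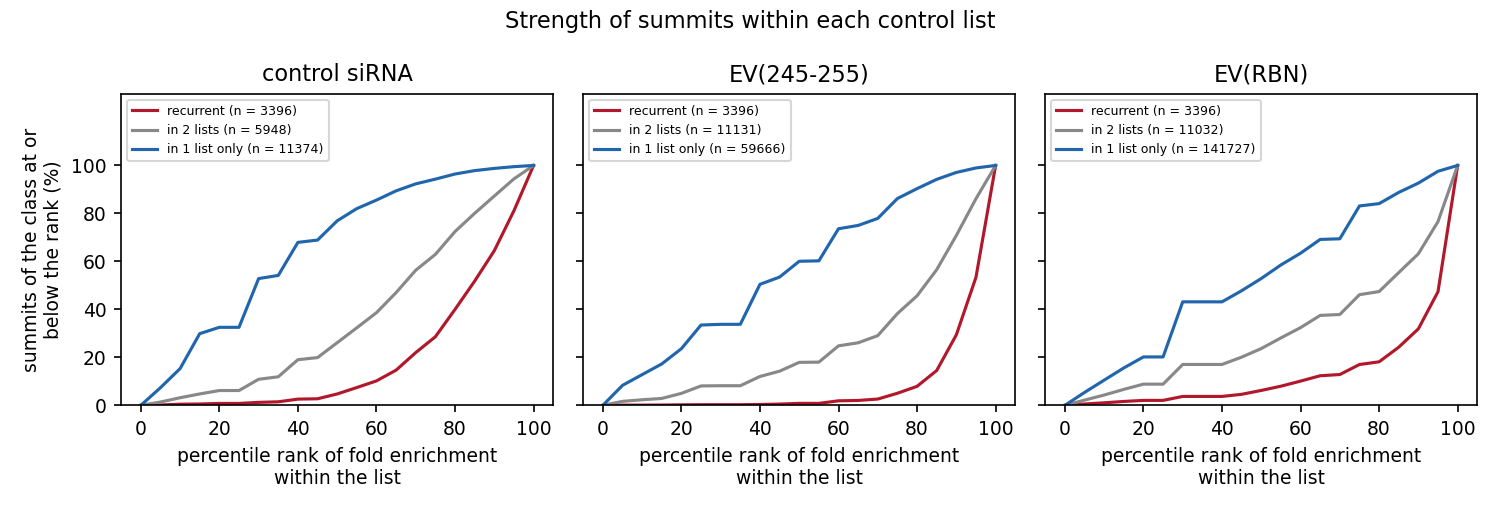
Cumulative share of summits (y axis, %) against the percentile rank of fold enrichment within the list (x axis), for recurrent summits, summits in 2 lists and summits in 1 list only, 1 panel per control library. Recurrent summits sit to the right, with median ranks of 84.6, 94.4 and 95.6 against 26.0, 35.4 and 47.0 for summits in 1 list only.

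The order of strength was partly shared. Over the 3396 sites, which share chromosome position, copy number and base composition, Spearman's rho of the fold ranks was 0.82 between the control siRNA and EV(245-255), 0.59 between the control siRNA and EV(RBN), and 0.55 between the empty vectors. Ranked by −log10 p, which is the same value for 77.2% of the control siRNA summits and 49.4% of those of EV(245-255), rho was 0.45, 0.49 and 0.47. The 2 lists with an IgG partner ranked most alike by fold.

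Gene starts held most of the recurrent sites. Of 3396 sites, 1892 or 55.7% (Clopper-Pearson 95% interval 54.0 to 57.4) had their middle summit within 1 kb of a protein-coding gene start, or of either gene end where the strand was not known. The share was 10.2% (9.64 to 10.8) of the control siRNA 1-list summits, 6.01% (5.82 to 6.21) of EV(245-255) and 5.08% (4.97 to 5.20) of EV(RBN), while 1.77% of chromosome positions lie so. Summits shared by 2 lists stood between, at 37.2%, 28.9% and 27.2%. Of the remaining recurrent sites, 655 lay in gene bodies and 849 between protein-coding genes. Among pairs from the empty vectors, with the control siRNA list left out, the share at starts was 33.9%.

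**Figure D2:**
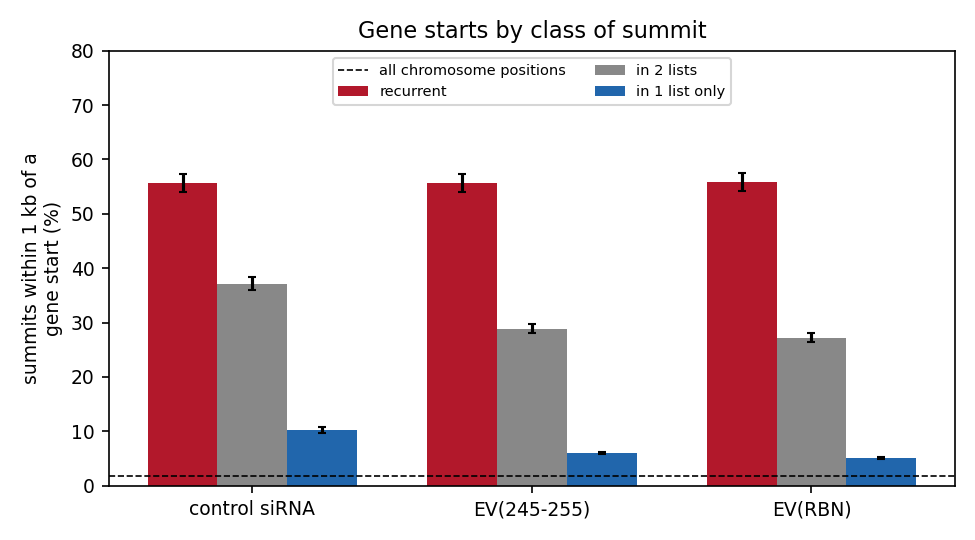
Share of summits within 1 kb of a gene start (y axis, %) by control library (x axis) and class, with exact 95% intervals as error bars and the share of all chromosome positions as a dashed line. Recurrent summits reach 55.7 to 55.8% in every library, and summits in 1 list only stay between 5.08% and 10.2%.

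The share at starts rose with strength. Sites were put in quintiles by the lowest of their 3 fold ranks. In the weakest quintile 27.6% (24.3 to 31.2) lay at a start, then 42.9%, 62.9%, 71.4% and, in the strongest, 73.8% (70.3 to 77.1). The median span of the 3 summits fell from 136 bp in the weakest quintile to 101 bp in the strongest. Sites at starts had median fragment numbers of 38, 23 and 8 in the control siRNA, EV(245-255) and EV(RBN) lists, and sites elsewhere 17, 14 and 6.

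Recurrent summits sat just upstream of the start. Among genes of known strand the median position was −92.5 bp in the control siRNA list, −93 bp in EV(245-255) and −104 bp in EV(RBN). Only 29.5%, 22.6% and 33.4% lay downstream. Summits in 1 list within 1 kb of a start centred at 30, −21.5 and 4.5 bp, and 55.0%, 45.4% and 50.4% lay downstream. In the weakest quintile of recurrent sites the median position was −36 bp, and it moved through −61, −82.5 and −107 bp to −162 bp in the strongest, where 78.6% lay upstream. Positions from −250 to 250 bp held 82.6%, 82.6% and 75.3% of the recurrent summits near starts, against 62.0%, 63.5% and 34.1% of the 1-list summits.

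**Figure D3:**
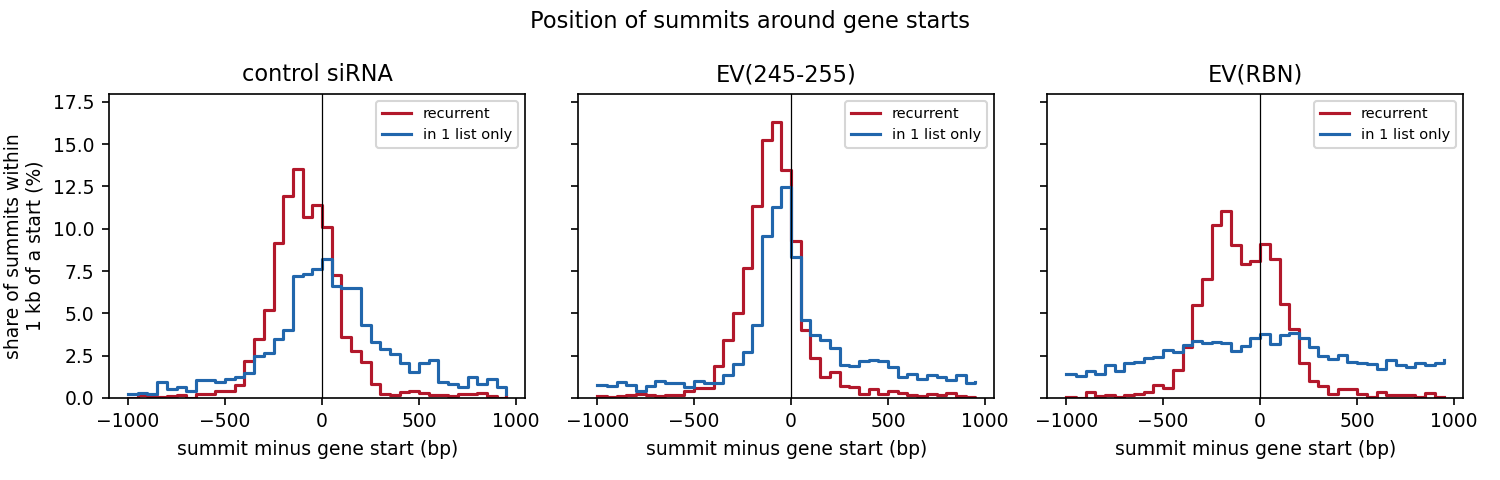
Share of summits within 1 kb of a start (y axis, %) in bins of distance from the start (x axis, bp, negative upstream), 1 panel per control library. Recurrent summits peak upstream of the start, with medians of −92.5, −93 and −104 bp, and 1-list summits spread to both sides, most widely in EV(RBN).

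Divergent gene pairs, whose starts face away from each other, were counted at these sites. Starts of genes on opposite strands were both within 1 kb at 242 of the 1892 sites, 12.8% (11.3 to 14.4). Over all 15812 genes with a known start, counted at the first listed start, the share was 13.4% (12.8 to 13.9). These shares are not like for like, because a divergent pair can share a site while each of its genes is counted over all genes. Sites at genes of unknown strand could also not be counted as divergent. Whether recurrent sites differ from all genes in this was therefore not decided. At EV(RBN) 1-list summits near starts, also counted by site, the share was lower than at recurrent sites, 5.45% (4.93 to 5.99).

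The 20 strongest sites at starts were ranked by the lowest of the 3 −log10 p ranks, with ties broken by the lowest fold rank. Histone cluster genes and genes with LOC or LINC symbols were left out of this ranking, which removed H4C14, a histone H4 gene with 358, 93 and 73 fragments at −151 bp. CARS2 was level with ATP5MC1 in last place and was left out by alphabetical order. The 20 sites held from 182 to 1386 fragments in the control siRNA list, 70 to 513 in EV(245-255) and 26 to 250 in EV(RBN). Of the 17 with a known strand, 16 had the middle summit upstream, from −110 to −507 bp, and GPR137, which encodes a membrane protein, had it at 691 bp. The strongest was FARP2, a guanine nucleotide exchange factor: all 3 summits fell on base 241355778 of chromosome 2, at −507 bp, with 1386, 403 and 138 fragments in the order control siRNA, EV(245-255), EV(RBN). That order is kept below. The site was among the highest of all 3 lists by fold rank.

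Regulators of chromatin and transcription were among these 20 sites. SP1, the zinc-finger factor that binds GC boxes, had 308, 79 and 60 fragments at −360 bp. KAT6B, a histone acetyltransferase, had 225, 85 and 47 fragments, with the 3 summits within 3 bp of each other. HBP1, an HMG-box repressor, had 192, 110 and 69. The divergent pair CBX3, which encodes the heterochromatin protein HP1 gamma, and HNRNPA2B1, which encodes a splicing factor, shared 1 site with 229, 73 and 45 fragments. In each of these genes the count, not scaled for depth, was highest in the control siRNA and lowest in EV(RBN). The medians over all recurrent sites, 28, 19 and 7, fell in the same order.

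The other sites of the 20 fell at genes of varied roles. GRSF1, an RNA-binding protein of mitochondria, had 503, 259 and 26 fragments on the repeat printed above, and SPATC1L had 244, 158 and 29. SIVA1, linked to apoptosis, had 513, 169 and 38, and ATP5MC1, subunit c of the mitochondrial ATP synthase, had 182, 70 and 31. ESYT1, a tether between the endoplasmic reticulum and the plasma membrane, had 197, 78 and 33. CIMAP1D, TMEM87B, B3GALNT2, BRD3OS, HDGFL2, EEF2KMT and MCPH1 complete the group with FAM72C and FAM86B1, which belong to families of near-identical copies and are uncertain. MCPH1, a protein of the DNA damage response and chromosome condensation, had 471, 513 and 250 fragments and, like GPR137 with 244, 90 and 93, departed from the falling order of the counts.

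TRIM24 itself carried a recurrent site at its gene end. Its 3 summits lay at 51, 46 and 121 bp from base 138460259 of chromosome 7, with 103, 60 and 10 fragments and fold ranks of 97.4, 98.9 and 96.1. RB1 did not: summits with 9 and 9 fragments lay at 262 and 126 bp from its start in the control siRNA and EV(245-255) lists, and the nearest EV(RBN) summit was 12253 bp away. DUSP2, a phosphatase of MAP kinases named in the series title, had a start summit in EV(245-255) alone, with 17 fragments at 139 bp. MTOR, the kinase of the mTOR pathway, had one in EV(RBN) alone, with 5 fragments at −25 bp. Intervals of the control siRNA list covered the DUSP2 and MTOR starts, but their single summits lay 63342 and 10858 bp away.

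Away from starts, the strongest recurrent sites stood far above the typical one. The first lay on chromosome 1 at 236097233, between genes and 32143 bp from the nearest, NID1, with 3420, 4257 and 1302 fragments. It had the highest −log10 p of all 3 lists. A site on chromosome 16 at 89995398, within 1 kb of the transcribed pseudogene AFG3L1P, had 1130, 1431 and 690 fragments. Both were within 250 bp of a summit in each of the RB1 siRNA, HA-RB(245-255) and HA-RBN lists.

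Genes known for imprinting held some of the 10 strongest of these sites, and their share over all sites or all genes was not counted. The body of PEG10, a paternally expressed gene derived from a retrotransposon, had 521, 275 and 92 fragments, 1863 bp from the nearest gene start. The site in the overlapping PEG3 and ZIM2 genes, also imprinted, had 438, 129 and 98. The bodies of DIP2C and PTPRN2 held 392, 207 and 96, and 360, 190 and 180. The others lay near CD300LG with 486, 590 and 86, near the non-coding gene STEAP2-AS1 with 375, 274 and 46, 3300 bp from ZNF124 with 423, 1140 and 98, and near the pseudogene CTBP2P9 with 530, 160 and 168. Gene 3′ ends took 1.40% (0.866 to 2.13) of the 1504 recurrent sites away from starts, against 0.783%, 1.11% and 1.76% of the 1-list summits in the order control siRNA, EV(245-255), EV(RBN). The recurrent interval lay above the first of these shares, whose own interval reached 0.974%, and included the others. Bodies of zinc-finger genes took 0.399% (0.147 to 0.866), against 0.392%, 0.622% and 0.812%.

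Recurrent control sites were found again in the libraries that carried an RB construct or the RB1 siRNA, which took no part in choosing them. A summit of the RB1 siRNA list lay within 250 bp of 72.6% (71.0 to 74.1) of the sites, one of HA-RB(245-255) of 78.5% (77.1 to 79.9) and one of HA-RBN of 83.5% (82.2 to 84.7). All 3 conditions were present at 1806 sites, 53.2% (51.5 to 54.9), and none at 99. Chromosome positions gave 0.559%, 1.52% and 4%. The 1-list summits were in all 3 condition lists at 2.11% in the control siRNA, 1.10% in EV(245-255) and 0.279% in EV(RBN). At 100 bp instead of 250 bp the share of recurrent sites in all 3 fell to 24.7%.

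**Figure D4:**
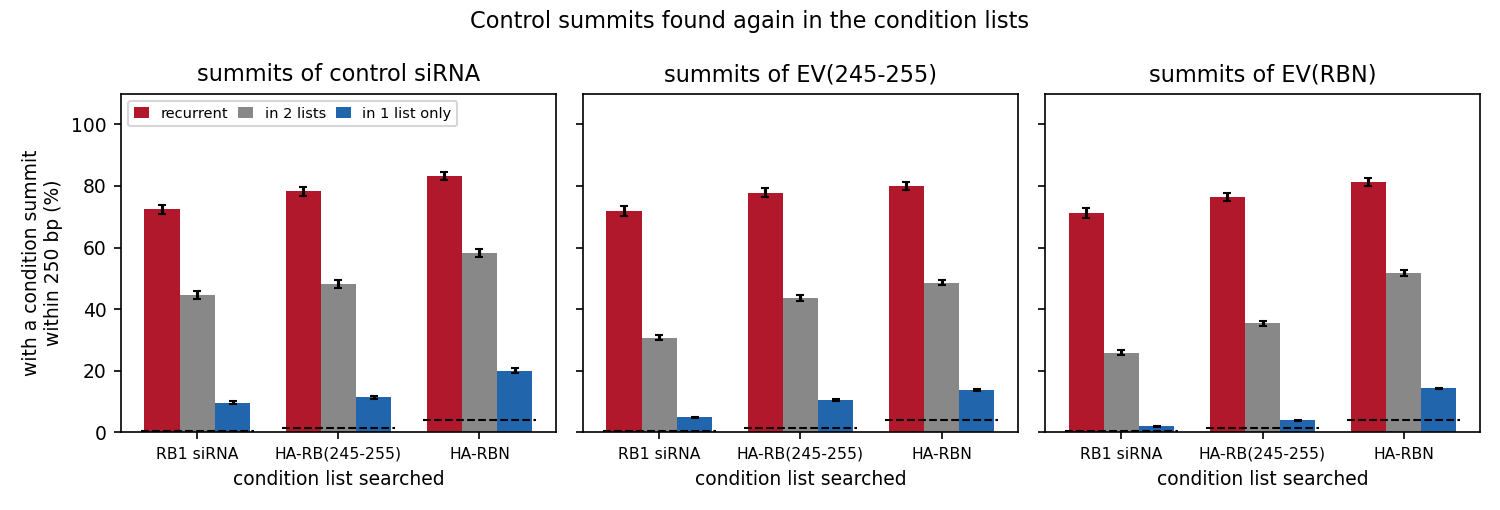
Share of control summits with a condition summit within 250 bp (y axis, %), by condition list (x axis), class (colour) and control library (panel), with exact 95% intervals and dashed lines for all chromosome positions. Recurrent summits reach 71.3 to 83.3% and 1-list summits 1.96 to 20.1%.

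This share was higher at gene starts and rose with strength. Of recurrent sites at starts, 60.4% (58.2 to 62.6) were in all 3 condition lists and 16 sites in none. Elsewhere 44.1% (41.6 to 46.6) were in all 3 and 83 sites in none. From the weakest to the strongest quintile the share in all 3 ran through 29.6%, 41.1%, 51.5%, 60.2% and 83.5%. Of the 20 strongest sites at starts, ranked without histone cluster genes as above, 19 were in all 3, and FAM72C had its nearest HA-RBN summit 418 bp away.

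By gene, the 3 lists overlapped more than by site. A summit of the control siRNA lay within 1 kb of 30.1% of the protein-coding genes, one of EV(245-255) of 46.6% and one of EV(RBN) of 58.2%. All 3 lists had one at 4084 genes, 20.6%, and a recurrent site marked 11.2%. For 15812 genes with a known start the share with a recurrent site was 11.9%, and for 4027 without it was 8.64%. Genes with a summit of 1 list only numbered 376 or 1.9% for the control siRNA, 1443 or 7.27% for EV(245-255) and 3391 or 17.1% for EV(RBN). Leaving out a list gave 4499 genes without the control siRNA, 3502 without EV(245-255) and 3712 without EV(RBN).

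Many 1-list summits at starts stood near a summit of another control list. Another control summit lay within 1 kb of 63.4% of the control siRNA 1-list summits at starts, 49.5% of those of EV(245-255) and 35.5% of those of EV(RBN). The strongest gene starts of each kind were taken by rank. In the control siRNA they were LRP11, CENPX with LRRC45, FADS2 with FADS1, CHAC1 and ACTN4, with 41 to 44 fragments. CENPX is a centromere and DNA repair protein, the FADS genes encode fatty acid desaturases, and ACTN4 is an actin cross-linker.

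In EV(245-255) the 1-list starts were MBOAT7 with 49 fragments, LSM4 with 39, PBRM1 with GNL3 at 37, RPL18 with 36 and SIK1 with 35. PBRM1 is a subunit of the PBAF remodelling complex and LSM4 a splicing protein. In EV(RBN) they included DEDD with 35, OSGEP with APEX1 at 34, RACK1 with 31 and LRRC41 with UQCRH at 24. APEX1 is a DNA repair endonuclease and RACK1 a ribosomal scaffold. These values were below those of the 20 strongest recurrent starts in the control siRNA and EV(245-255) lists, and within their range or just under it in EV(RBN). All 15 starts taken by this rule, 5 a list, had a summit of at least 1 condition list within 250 bp.

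The 15 gene lists, chosen with earlier results of these data known, were counted against the 11.2% of all genes. Genes of mitosis had a recurrent site at 12 of 30 members, 40.0% (22.7 to 59.4). Genes of DNA replication had one at 15 of 44, 34.1% (20.5 to 49.9). Both intervals lay above the background. So did those of prostate lineage and androgen response genes, p53 targets, splicing genes, cytosolic ribosomal protein genes and the RB and E2F core, with lower bounds of 12.6%, 12.1%, 13.0%, 12.5% and 11.5%. Markers of other organs had one at 0 of 44 (0 to 8.04). Interferon response genes had one at 1 of 29, 3.45% (0.0873 to 17.8), and this interval included the background. The 4 lists sit at the ends of the plot of lists, with mitosis at the top and organ markers at the bottom.

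**Figure D5:**
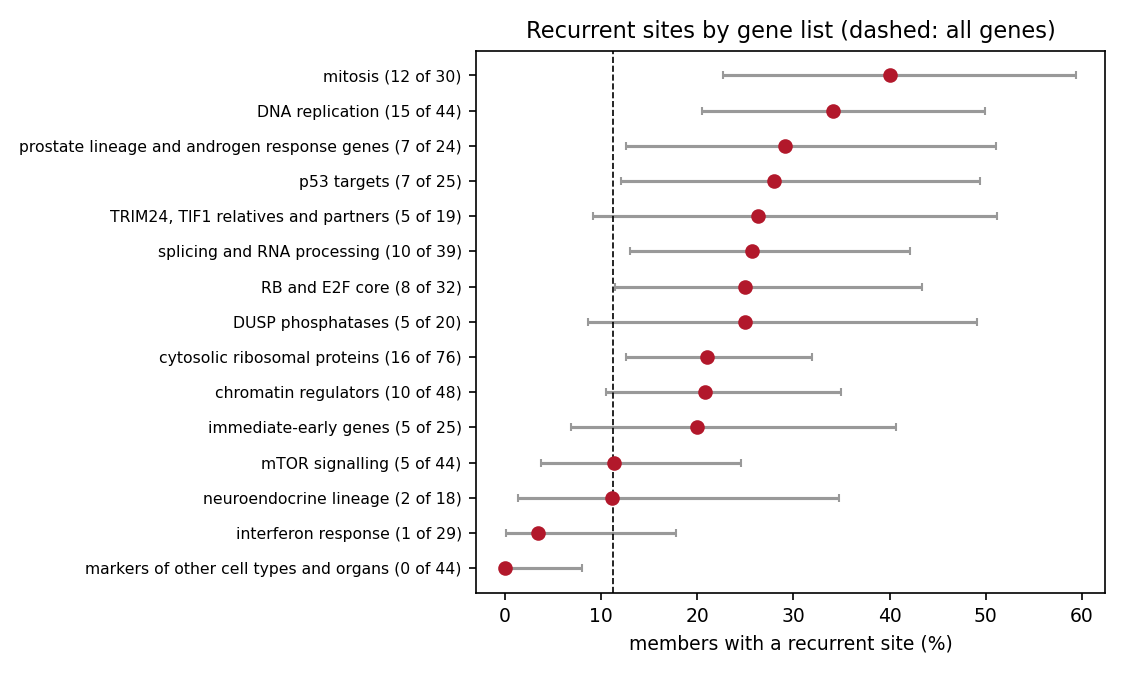
Members of each gene list with a recurrent control site (x axis, % with exact 95% intervals; y axis, list with its counts), with the share of all protein-coding genes, 11.2%, as a dashed line. Mitosis reaches 40.0% and markers of other organs 0%.

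Mitosis genes with a recurrent site covered spindle, kinetochore and checkpoint. NUSAP1, a spindle microtubule protein, had 76, 34 and 14 fragments at its CCAAT-rich promoter. TTK, the checkpoint kinase MPS1, had 45, 29 and 14, CDK1, the mitotic kinase, 38, 16 and 8, and BUB3, a checkpoint protein, 25, 27 and 8. AURKA, CENPA, CENPF, CDC20, ECT2, KIF11, MAD2L1 and PRC1 were the others. The median over the 12 was 35, 20 and 8, beside 38, 23 and 8 over all sites at starts.

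Recurrent replication genes included MCM4, a subunit of the replicative helicase, with 127, 42 and 14 fragments at a site shared with PRKDC. LIG1, the ligase of Okazaki fragments, had 176, 43 and 20. PCNA, the sliding clamp, had 109, 67 and 12, and RPA2, of the single-strand binding complex, 77, 40 and 14. MCM5, MCM10, CDC45, GINS2, GINS4, ORC2, ORC6, POLA1, PRIM1, RFC3 and RPA1 were also recurrent. In the RB and E2F core 8 of 32 genes (95% interval 11.5 to 43.4%) had a site: CDK4, the kinase that phosphorylates RB, with 128, 117 and 28, then CDKN2C, E2F3, CCND1, CDK6, TFDP2, E2F6 and CDKN1B. Each of the DNA replication sites named with values was within 250 bp of an HA-RBN summit, as were 88.6% of all recurrent sites at starts. GINS2 had its nearest HA-RBN summit 375 bp away. PCNA had its nearest RB1 siRNA summit 6979 bp away, and CDC45, GINS4, PRIM1 and RPA1 also had none within 250 bp. Of all recurrent sites at starts, 77.7% had an RB1 siRNA summit within 250 bp.

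For the TRIM24, mTOR and DUSP lists the interval included the background. TRIM24 and its relatives and partners had a site at 5 of 19, 26.3% (9.15 to 51.2), namely CBX3, EP300, TRIM24, RARB and TRIM28. TRIM28, the KRAB co-repressor, had 104, 66 and 23 fragments, and EP300, the acetyltransferase, 87, 46 and 9. The mTOR list had 5 of 44, 11.4% (3.79 to 24.6), among them AKT2, RPS6KB1, TSC1 and RRAGB. RPS6KB1, the S6 kinase, had 33, 41 and 9 fragments on the promoter with GCATGCG printed above. DUSP phosphatases had 5 of 20 (8.66 to 49.1%), namely DUSP23, DUSP4, DUSP7, DUSP1 and DUSP6.

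Prostate lineage and androgen response genes had a site at 7 of 24, 29.2% (12.6 to 51.1). GRHL2, an epithelial transcription factor, had 106, 41 and 36 fragments, and ELL2, an elongation factor, 71, 48 and 12. NDRG1, UBE2C, ACP3, FKBP5 and STEAP1 were the rest, and FKBP5, a chaperone partner induced by androgen, ranked at 13.6 in EV(RBN) with 9 fragments. Of 12 markers of prostate epithelial lines, only STEAP1 was recurrent, KLK3 and TMPRSS2 had no control summit within 1 kb, and KLK2, HOXB13, FOXA1, FOLH1, TRPM8 and SLC45A3 were among those with summits in some lists. None of 13 markers of other cell types was recurrent. A recurrent site marked 11.2% of all genes, so counts this small do not tell these groups of markers apart.

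The p53 targets had a site at 7 of 25, 28.0% (12.1 to 49.4), led by RRM2B, a ribonucleotide reductase subunit, with 154, 73 and 36 fragments. Splicing genes had 10 of 39, 25.6% (13.0 to 42.1), and the median over those 10 was 125, 46 and 22 fragments. These were the highest of the list medians in the control siRNA and EV(RBN), while the TRIM24 list had 60 in EV(245-255). HNRNPD had 161, 70 and 37, DDX5 137, 69 and 26, and SNRPA, of the U1 particle, 176, 64 and 18. The DDX5 site also served CEP95, and the SNRPA site ACTMAP, whose start was nearer (−176 against −550 bp). Of the 1892 recurrent sites at starts, 336 or 17.8% served more than 1 gene. Chromatin regulators had 10 of 48, 20.8% (10.5 to 35.0), with EZH2, the H3K27 methyltransferase, at 315, 47 and 6 and CTCF at 101, 47 and 10. Immediate-early genes had 5 of 25 (6.83 to 40.7%), led by JUN with 101, 70 and 16. The neuroendocrine list had 2 of 18 (1.38 to 34.7%), ONECUT2 and SRRM4. The intervals of chromatin regulators, immediate-early genes and the neuroendocrine list all included the 11.2% of all genes.

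Cytosolic ribosomal protein genes had a recurrent site at 16 of 76, 21.1% (12.5 to 31.9). A further 26 had a summit of EV(RBN) and no other control list, against 17.1% of all genes. RPS19 had 90, 29 and 35 fragments. Ribosomal protein genes have many processed pseudogenes, so reads may be shared between copies, and no source used here says how such reads were treated.

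The lists also differed in the CpG content of their promoters, and its part in these counts was not tested. The median number of CpG in a 300-base promoter window was 24 over all genes, 24 for mitosis, 31 for DNA replication, 30 for mTOR signalling, 8 for interferon response and 4 for markers of other organs. By quintiles of CpG number over 22132 windows, the share with a recurrent site ran through 0.745%, 5.63%, 15.5%, 16.5% and 12.4%. Any control summit within 1 kb was found for 24.8%, 53%, 79.5%, 83.0% and 79.3%. The low shares were in windows with few CpG, and the richest quintile was not the highest.

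Promoters with a recurrent site differed in sequence from those with no control summit, and less from other promoters with one. The windows run from 250 bases before to 50 after each RefSeq start. Their median GC content was 65.3% over 2246 recurrent windows and 54.7% over 7990 windows without a summit, and the median CpG number was 27 against 7. The 11896 windows with a control summit but no recurrent site had 65.0% GC and 25 CpG, close to the recurrent windows. The GC box GGGCGGG, bound by SP and KLF factors, was in 58.7% of recurrent windows, 26.4% of windows with none and 42.4% of all windows. The ETS letters CCGGAAG were in 19.1%, 5.56% and 12.8%, and the YY1 letters ATGGCGG in 12%, 3.03% and 6.99%. TATAAA, the TATA box, ran the other way at 4.01%, 15.7% and 9.46%. So did AGGTCA, the core of nuclear receptor elements, at 8.50%, 14.7% and 11.9%.

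GC content moved with these shares, so the count was repeated in windows with GC of at least 60%. CCAAT, the letters of NF-Y, stood at 41.9% (39.6 to 44.3) of recurrent windows against 22.9% (21.4 to 24.4) of windows without a control summit and 30.1% (29.2 to 31.1) of the other windows with one. In the same order of 3 groups, the ETS letters stood at 18.9%, 9.39% and 17.8%, those of YY1 at 12.5%, 5.68% and 9.64%, and the GC box at 67.4%, 58.1% and 64.0%. For the ETS letters the intervals of the recurrent (17.1 to 20.8) and other listed windows (17.0 to 18.7) overlapped. The CGCG element printed for RPS19 stood at 6.01%, 2.71% and 4.38%. E2F letters stood at 13.5%, 8.65% and 11.7% in the form TTCCCGC and at 5.89%, 3.98% and 5.27% in the form printed in capitals for NUSAP1. The nuclear receptor core stood at 7.66%, 10.2% and 8.68%. As for the ETS letters, the intervals of the recurrent and other listed windows overlapped for each E2F form and for the nuclear receptor core. Overlap of intervals does not show that the shares are equal. Without the GC limit, recurrent and other listed windows had intervals that lay apart for 3 of these. They were 17.5 to 20.8% and 15.8 to 17.2% for the ETS letters, and 11.1 to 13.9% and 9.22 to 10.3% for TTCCCGC. For the nuclear receptor core they were 7.38 to 9.73% and 10.1 to 11.2%. For the E2F form of NUSAP1 they overlapped. Over all windows the CCAAT box was in 34.6%, the E-box CACGTG in 8.34%, TTCCCGC in 8.14% and the CGCG element in 3.08%. A match of letters is a description and not a binding site.

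The letters also varied with strength among recurrent windows. From the weakest to the strongest quintile, the E2F letters TTCCCGC were in 8.02%, 6.72%, 13.0%, 14.1% and 20.4%, and the GC box in 52.1%, 54.9%, 60.3%, 61.9% and 64.5%. The CCAAT box was in 41.2% of the weakest and 50.3% of the strongest, and the E-box CACGTG in 9.58% and 15.1%. The ETS letters went from 20.5% to 15.5%, so not every motif of recurrent promoters was more common at the strongest. The letters of ZNF143 (ACTACAA), CREB/ATF and NRF1 were in 4.01%, 6.24% and 6.01% of the weakest and 2.88%, 5.54% and 6.65% of the strongest. Median GC was 65.0% and 66.0% at these ends.

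Tandem repeats like that of GRSF1 were rare. A stretch of 100 bases in which at least 90 matched the base 1 period earlier, for periods from 8 to 100 bases, was found in 13 of 2246 recurrent windows, 0.579% (0.309 to 0.988), and in 0.312% of all windows. Of the 13, 6 were in the strongest quintile, among them GRSF1, SPATC1L, UBE3C, ASMTL and FGGY. No source used here says how reads from repeats were placed.

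Recurrent sites were spread over all 23 chromosomes. Chromosome 19, the most gene-dense, had the most per length, 2.78 per Mb, and chromosome X the fewest, 0.365 per Mb. By gene the order differed: chromosome 7 had a recurrent site at 14.9% of its genes, chromosome 19 at 8.23% and X at 4.72%. Chromosome X held 1.68% of the recurrent sites and 3.98%, 2.72% and 1.37% of the 1-list summits of the control siRNA, EV(245-255) and EV(RBN).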

How the data were processed

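The peak lists of 6 immunoprecipitated libraries were used: the 3 controls, and the 3 conditions only to look up control sites. The 4 IgG libraries were not analysed here. MACS2 2.1.0, Bowtie 1.1.2, Trimmomatic 0.33 and bcl2fastq 2.17 are the tools, and hg38 the build, per the submitters' processing notes, without roles. Peaks were listed per library. The deposited lists, which have no header, give for each peak the authors' score (the whole-number part of 10 times the −log10 p-value), the authors' fold enrichment as a ratio to the local background, a −log10 p-value and a −log10 q-value, both the authors', and the offset of the summit. Read totals and caller settings are in none of the sources used here, so depth is unknown.

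Summits on chromosomes 1-22 and X were matched one to one, the tightest sets first, and the middle summit stood for the site. Sites were ranked within each list by −log10 p as designed. Since these values are heavily tied, fold enrichment ranks within the list are given too. Fragments at a summit were recovered from fold enrichment, taken as pileup plus 1 over background plus 1, and the Poisson p-value. One fragment was worth 0.0166 in the control siRNA list and 0.0434 in EV(245-255), and was taken as 1 in EV(RBN). In the first 2 lists, 99.8% of values were whole within 0.2 fragments. Matching was tested on simulated data, and so was recovery with a fragment worth 0.0166. The recovery used for EV(RBN) was not tested in this way.

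Genes and promoter windows came from RefSeq tables of GRCh38.p14. They held 19839 protein-coding genes, 15812 with a known start, after 135 genes on other scaffolds were left out. Of 520 list symbols, 3 (ACPP, TMEPAI and LOR) had no match. Shares carry exact Clopper-Pearson 95% intervals. Python 3.11.15, numpy 2.4.6, pandas 2.3.3, scipy 1.17.1 and matplotlib 3.10.9 were used. The rule for names took TRIM24, RB1, DUSP2 and MTOR, the 20 recurrent starts (without LOC, LINC and histone cluster symbols) and 10 other recurrent sites with the highest lowest rank, 5 starts of 1 list each, and up to 4 members per gene list. In the gene lists, recurrent members beyond those 4 are named too. A few genes of the 1-list starts and of the gene lists are not reported here, and they remain in the counts. Members and lists were chosen with earlier results of these data known.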

Additional observations from a re-analysis of the deposited data

How the results depend on the processing

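Of 56 recomputed values, 7 moved by less than their counting interval (or, for counts, by less than 1.5 times) and 49 moved further. The cause was not tested except where fewer summits entered. In every setting that gave both, the share at starts was higher for recurrent sites than for summits in 1 list. With a span of at most 100 bp there were 1361 sites and 801 genes, and the shares at starts were 50.5% of recurrent sites and 16.1%, 8.26% and 6.26% of the summits only in the control siRNA, EV(245-255) and EV(RBN) lists, an order kept below. With 500 bp those of 1 list were 7.06%, 4.60% and 4.29%. With −log10 q of at least 2, 124 sites and 78 genes were left. With each list cut to the length of the shortest there were 2078 sites and 1485 genes. Shares at starts were then 59.7%, 13.6%, 14.8% and 15.6%, and shares in all 3 condition lists 62.3%, 3.93%, 4.46% and 2.45%. Shares at starts within 500 bp were 53.4%, 8.39%, 4.68% and 3.07%, and within 2 kb 57.8%, 11.8%, 7.89% and 8.15%. Shares in all 3 condition lists were 24.7%, 0.545%, 0.330% and 0.0621% at 100 bp, and 60.5%, 4.40%, 2.10% and 0.945% at 500 bp. Spearman's correlation of the ranks rose from 0.45 to 0.82, 0.49 to 0.59 and 0.47 to 0.55 with fold enrichment in place of −log10 p. Leaving out each control list in turn, an alternative chosen after seeing the data, gave 6456 to 11512 sites, 3502 to 4499 genes and 33.9% to 48.8% at starts. No paired analysis was possible because each group has 1 library.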
